A study of Mus musculus with 24 samples.

Results

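The genes described are 6 receptors by which macrophages and their precursors sense chemokines and related attractants: Ccr1, Ccr2, Ccr3, Ccrl2, Cx3cr1 and Cxcr4. They were taken by symbol from a table of 43629 mouse gene identifiers, which held all 6. All 6 were among the 18637 genes tested, which reached a value of 1 in 3 or more libraries. RNA sequencing was done on bone marrow-derived macrophages, cells grown in culture from marrow precursors, of C57BL/6 mice labelled postnatal week 10. The cells were Wild Type (WT) or CITED2-KO (KO), the latter without CITED2, a nuclear protein that competes with other factors for the coactivators p300 and CBP. Both genotypes were studied as control or after LPS, IFNg or IL4, making 8 groups of 3 libraries and 24 libraries in all. LPS is a bacterial cell wall component, IFNg is interferon gamma, the cytokine of classical activation, and IL4 is interleukin 4, the cytokine of alternative activation. How CITED2 was deleted and in which cells, and the dose and time of each treatment, are not given in the sources used here. Nor do the labels say whether the 3 libraries of a group are from different mice or dishes. The p-values therefore reflect the spread among these samples alone, and that spread may be technical.

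Chemokine receptors are membrane proteins coupled to inhibitory G proteins, and a leukocyte moves up the gradient of the chemokines for which it carries receptors. CCR2 draws monocytes out of the bone marrow and into inflamed tissue in response to CCL2, CCL7 and CCL12, and CX3CR1, the receptor of fractalkine (CX3CL1), marks patrolling monocytes and many resident macrophages. CCR1 binds CCL3, CCL5, CCL6 and CCL9, and CCR3 is the eotaxin receptor best known from eosinophils. CXCR4 holds precursor cells and leukocytes in the marrow through CXCL12. CCRL2 is an atypical receptor that binds the attractant chemerin (the product of Rarres2) without the usual G protein signal.

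In GRCm38, counted from 1, 3 of the genes lie in one cluster on chromosome 9: Ccr1 (ENSMUSG00000025804) at chr9:123962124-123968692 on the minus strand, Ccr3 (ENSMUSG00000035448) at chr9:124021972-124031689 on the plus strand and Ccr2 (ENSMUSG00000049103) at chr9:124101950-124113557 on the plus strand. Ccrl2 (ENSMUSG00000043953) is at chr9:111054486-111057519 and Cx3cr1 (ENSMUSG00000052336) at chr9:119901616-120069879, both on the minus strand. Cxcr4 (ENSMUSG00000045382) is at chr1:128588199-128592293 on the minus strand. All 6 are protein-coding in the GENCODE M21 annotation. An exon of the Cx3cr1 model overlaps that of the antisense gene Gm33858, and whether the counting used strand is not given in the sources used here, so reads of these 2 genes may not be told apart. The receptors of the cluster are related in sequence, and the treatment of reads that match more than 1 gene is likewise not given.

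Ccrl2 and Cxcr4 showed the widest responses to LPS among the 6, in opposite directions, so the 250 bases before their first bases are shown from RefSeq (GRCm38.p6), 5′ to 3′ on the minus strand. The Ccrl2 stretch is chr9:111057519-111057768, for the first of 3 starts that RefSeq gives, and the Cxcr4 stretch is chr1:128592300-128592549. Capitals mark matches to the motifs searched.
Ccrl2: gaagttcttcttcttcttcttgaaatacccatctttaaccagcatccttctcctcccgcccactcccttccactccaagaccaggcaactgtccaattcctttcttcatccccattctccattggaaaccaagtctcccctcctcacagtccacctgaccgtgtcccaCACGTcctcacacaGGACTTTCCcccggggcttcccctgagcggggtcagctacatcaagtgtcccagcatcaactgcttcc
Cxcr4: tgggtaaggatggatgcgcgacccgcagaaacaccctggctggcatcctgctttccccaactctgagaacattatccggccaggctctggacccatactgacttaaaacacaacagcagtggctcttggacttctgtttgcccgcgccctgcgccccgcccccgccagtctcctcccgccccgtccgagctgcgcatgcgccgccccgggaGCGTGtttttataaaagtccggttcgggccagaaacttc
In Ccrl2 the capitals are CACGT, the reverse strand of ACGTG, at bases -82 to -78, and GGACTTTCC at -68 to -60. ACGTG is one form of the core of the hypoxia response element and GGACTTTCC is the NF-kB site core of the immunoglobulin kappa enhancer. In Cxcr4 they are GCGTG, the other form of the hypoxia core, at -39 to -35. Of 32851 stretches of the same length before RefSeq starts, 0.283% held GGACTTTCC, 16.6% ACGTG and 28.2% GCGTG on either strand. The NF-kB core was thus the rare one, but it has 9 letters and the hypoxia cores 5. Before starts 2 and 3 of Ccrl2, ACGTG was matched on the reverse strand and GGACTTTCC was not matched. Start 3 also had a match to GCGTG. The other motifs searched were AP-1 (TGANTCA, in 6.75% of stretches), PU.1 (GAGGAAGT, 2.44%), the interferon element ISRE (2.98%) and the STAT6 element (5.85%). None of these matched before Ccrl2 or Cxcr4. Before Ccr3, 1 match was found to TGANTCA, and before Ccr1, 1 to GCGTG on the reverse strand. Motifs were matched on both strands, were chosen with these sequences in view, and are letters only: binding was not measured.

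The libraries held 1478507 to 73409343 reads, with a median of 29551522. Replicate 1 of the KO LPS group was the shallowest, and the next had 7818719. In that library 1 read was worth 23.6 units of normalised read count, the scale of every level below. Values of the low genes there are therefore coarse, and several of the results that rest on it are given with and without it. Other results for the KO LPS group include it. Cited2 itself had 1117 to 4174 in the WT libraries and 8.52 to 94.5 in the KO libraries. All 10 macrophage markers, among them Adgre1, Csf1r and Mertk, had reads in every group, with summed levels of 136926 to 227371.

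Ccrl2 was the receptor raised most by activation. In control cells its normalised read counts were 1409, 1391 and 1436 in WT and 1970.3, 1883 and 1813 in KO. With LPS they were 47331, 47123 and 46477 in WT and 49755, 53064 and 54594 in KO. All 6 LPS libraries thus stood far above all 6 controls. The means rose from 1412 ± 22.7 to 46977 ± 445 (SD, n = 3) in WT, 33.3-fold, and from 1889 ± 79.0 to 52471 ± 2473 in KO, 27.8-fold. On the log2 scale, after adding 1 to each value, the limma estimates were 5.06 ± 0.04 (SE; adjusted p = 1.1e-29) and 4.80 ± 0.04 (adjusted p = 1.5e-29).

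IFNg raised Ccrl2 to 19143, 18915 and 19921 in WT and 19472, 19289 and 19144 in KO, the 2 sets overlapping. These were 13.7-fold and 10.2-fold above control (limma log2 differences of 3.77 ± 0.04 and 3.35 ± 0.04, adjusted p = 2.5e-27 and 1.7e-26). With IL4 it read 1016, 1038 and 997 in WT and 1608, 1654 and 1643 in KO. IL4 thus lowered it in both genotypes, by a log2 difference of -0.47 ± 0.04 in WT and -0.21 ± 0.04 in KO (adjusted p = 3.1e-09 and 4.7e-04).

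Between genotypes, Ccrl2 was higher in KO than in WT in control cells (1.34-fold, log2 difference 0.42 ± 0.04, adjusted p = 1.3e-07) and with IL4 (1.61-fold, 0.68 ± 0.04, adjusted p = 1.1e-11), with no overlap of the 3 KO and 3 WT libraries in either. With LPS the difference was smaller, 1.12-fold (log2 0.16 ± 0.04, adjusted p = 0.0073). It was 0.20 without KO LPS replicate 1 (adjusted p = 0.0021), and the call was lost with edgeR on whole reads (adjusted p = 0.063) and in a fit of the 6 LPS libraries alone (adjusted p = 0.21). With IFNg the genotypes did not differ past the threshold, and the 95% interval of the difference ran from -0.09 to 0.08 on the log2 scale. Interaction tests, which ask whether a treatment's effect differed between genotypes, passed the threshold for Ccrl2 in all 3 treatments. The response in KO minus that in WT was -0.26 ± 0.06 for LPS (adjusted p = 0.0049), -0.42 ± 0.06 for IFNg (adjusted p = 6.6e-05) and 0.27 ± 0.06 for IL4 (adjusted p = 0.0076). So the KO cells, which began higher, had a smaller log2 rise with LPS and IFNg and a smaller fall with IL4. The LPS and IL4 calls were lost when libraries were centred on their medians (adjusted p = 0.060 and 0.17), and the IL4 call with edgeR (adjusted p = 0.11). Without KO LPS replicate 1 the LPS interaction was -0.22 (limma adjusted p = 0.016).

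**Figure D1:**
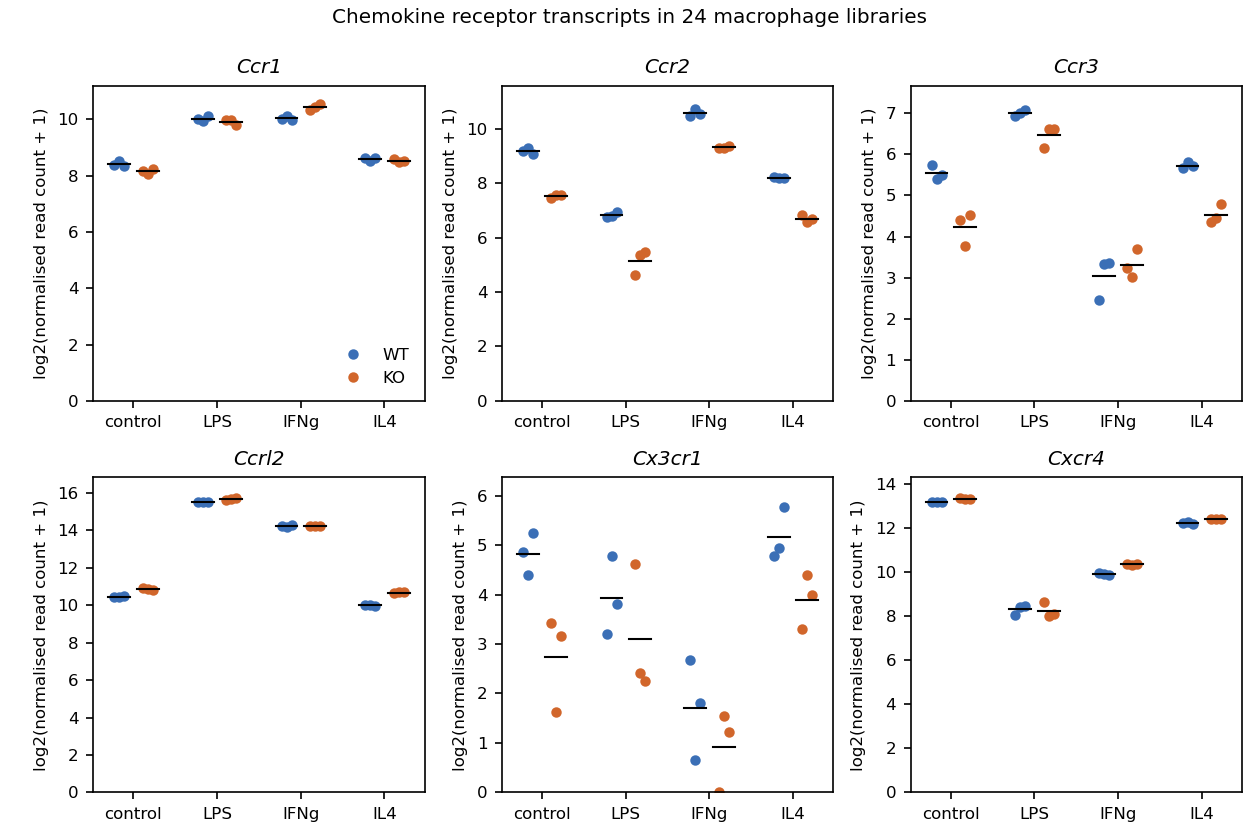
Level of each of the 6 receptors as log2(normalised read count + 1) (y axis, from 0) in the 24 libraries by treatment (x axis). Points are libraries, horizontal bars are means of 3 libraries, and colours are genotypes. Ccr2 lies lower in KO than in WT in every treatment, while Ccrl2 is highest with LPS and Cxcr4 in control cells.

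Cxcr4, the receptor of CXCL12, was highest in control cells and lowest with LPS. Control libraries had 9528, 9369.8 and 9455 in WT and 10546, 10431 and 10366 in KO, the highest levels of any group. With LPS the values were 269, 342 and 356 in WT and 402, 261 and 275 in KO. Every LPS library was far below every control library. The mean fell from 9451 ± 79.2 to 322 ± 46.7 in WT (29.3-fold lower, limma log2 difference -4.88 ± 0.11, adjusted p = 3.7e-22). In KO it fell from 10448 ± 91.2 to 313 ± 77.5 (33.4-fold lower, -5.09 ± 0.11, adjusted p = 1.5e-22). Without KO LPS replicate 1 the log2 difference in KO was -5.28 (limma adjusted p = 9.7e-27).

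With IFNg, Cxcr4 had 1015, 959 and 947 in WT and 1319.8, 1284 and 1338 in KO, 9.71-fold and 7.95-fold below control (adjusted p = 1.8e-18 and 1.2e-17). With IL4 it had 4846, 5084 and 4703 in WT and 5588, 5496 and 5539.8 in KO. That was 1.94-fold and 1.89-fold below control (adjusted p = 1.5e-07 and 2.5e-07), so all 3 treatments lowered Cxcr4 in both genotypes.

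Between genotypes, Cxcr4 passed the threshold only with IFNg among the 4 treatments in the limma fit: the KO libraries were 1.35-fold higher (log2 0.43 ± 0.11, adjusted p = 0.0084) and did not overlap the WT libraries. The differences in control cells (0.14 ± 0.11, adjusted p = 0.65) and with IL4 (0.18 ± 0.11, adjusted p = 0.39) did not pass, although their libraries did not overlap either. Both passed with DESeq2 on whole reads (adjusted p = 0.035 and 0.0028). With LPS, where replicate 1 of KO had 402 and the other two 261 and 275, the difference was -0.06 ± 0.11 (adjusted p = 0.75). Without that library it was -0.26 and passed (limma adjusted p = 0.015). With all libraries kept it passed with edgeR (-0.30, adjusted p = 0.027) and DESeq2 (-0.32, adjusted p = 0.0040). Its sign changed under 4 of 14 alternatives. The LPS interaction in limma likewise went from -0.21 ± 0.15 (adjusted p = 0.46) to -0.40 (adjusted p = 0.0092) without KO LPS replicate 1. With all libraries kept the interaction passed with edgeR (-0.46, adjusted p = 0.0074) and DESeq2 (-0.47, adjusted p = 2.0e-04).

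Over the 8 group means of log2(value + 1), Ccrl2 and Cxcr4 had a Pearson r of -0.96, and Ccrl2 and Ccr1 one of 0.92. These are descriptions over 8 points that share their libraries.

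Ccr2, the receptor of monocyte recruitment, was lower in KO than in WT in every treatment. Control libraries had 588, 622 and 539.8 in WT and 174, 187 and 189 in KO. With IL4 the values were 296, 291 and 289 in WT and 114, 94.3 and 101 in KO. In both treatments every KO library was below every WT library, 3.18-fold by the means in control cells and 2.83-fold with IL4. The limma log2 differences were -1.66 ± 0.15 (adjusted p = 2.4e-08) and -1.50 ± 0.15 (adjusted p = 6.4e-08).

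IFNg libraries had 1409, 1683 and 1495 in WT and 632, 626 and 653 in KO, the highest levels of Ccr2 in either genotype. LPS libraries had 106, 111 and 123 in WT and 23.6, 40.0 and 43.8 in KO. The value of KO LPS replicate 1 stands for 1 read. The groups again did not overlap, and KO was 2.40-fold below WT with IFNg (log2 -1.26 ± 0.15, adjusted p = 1.6e-06) and 3.17-fold below with LPS (-1.68 ± 0.15, adjusted p = 9.1e-09). Without KO LPS replicate 1 the last difference was -1.41 (adjusted p = 8.6e-11). In these bulk samples, fewer cells of a type and less RNA per cell cannot be told apart.

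Within each genotype, LPS lowered Ccr2 5.15-fold in WT and 5.13-fold in KO (log2 -2.35 ± 0.15 and -2.37 ± 0.15, adjusted p = 9.2e-13 and 7.1e-13). Without KO LPS replicate 1 the log2 difference in KO was -2.11 (limma adjusted p = 7.6e-16). IFNg raised Ccr2 2.62-fold and 3.47-fold (1.39 ± 0.15 and 1.79 ± 0.15, adjusted p = 2.2e-08 and 2.3e-10). IL4 lowered it 2.00-fold and 1.78-fold (-0.99 ± 0.15 and -0.83 ± 0.15, adjusted p = 1.4e-05 and 1.3e-04). No interaction passed the threshold for Ccr2 in the limma fit. The one with IFNg, 0.40 ± 0.21 (adjusted p = 0.58), passed with edgeR and with DESeq2 (adjusted p = 0.040 and 0.018).

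Cx3cr1, the fractalkine receptor, was close to the limit of detection. Its values were 28.0, 20.0 and 36.6 in WT control and 9.80, 2.09 and 7.89 in KO control libraries, and with IL4 26.5, 29.8 and 53.7 in WT and 8.87, 20.2 and 14.9 in KO. With LPS they were 8.15, 26.6 and 13.1 in WT and 23.6, 4.31 and 3.75 in KO, where the value of replicate 1 is again 1 read and the whole group held 11 reads. With IFNg they were 5.38, 0.570 and 2.49 in WT and 0, 1.92 and 1.34 in KO, the KO group holding 4 reads. KO means were below WT means in all 4 treatments, and the 3 libraries of each genotype did not overlap in control cells or with IL4. The log2 differences were -2.09 ± 0.67 in control cells (adjusted p = 0.065), -0.84 ± 0.67 with LPS, -0.79 ± 0.67 with IFNg and -1.27 ± 0.67 with IL4 (adjusted p = 0.42, 0.65 and 0.33). None passed the threshold with limma. Without KO LPS replicate 1 the LPS difference was -1.60 (adjusted p = 0.068). The control difference passed with edgeR (adjusted p = 0.0014) and DESeq2 (adjusted p = 0.0094) on whole reads, as did the LPS difference (adjusted p = 0.0061 and 0.045). The IL4 difference passed with edgeR (adjusted p = 0.0064) and not with DESeq2 (adjusted p = 0.073). Among treatments, IFNg lowered Cx3cr1, by a log2 difference of -3.12 ± 0.67 in WT (adjusted p = 4.1e-04) and -1.81 ± 0.67 in KO (adjusted p = 0.030). The KO call was lost without KO control replicate 1 (adjusted p = 0.13), KO control replicate 3 (0.10) or KO IFNg replicate 1 (0.15). With a pseudocount of 8 the difference shrank to -0.65 and the call was lost (limma adjusted p = 0.14). It was also lost under median centring (0.073) and with the compared libraries alone (0.069). The call was kept with edgeR (adjusted p = 0.014) and DESeq2 (adjusted p = 0.023).

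Markers of monocytes, the cells best known for Ccr2 and Cx3cr1 in blood, were read beside these genes. Of 8, 2 were higher in KO in control cells, 3 with LPS and 2 with IFNg, and 1 was lower, Nr4a1 with LPS, a call lost without KO LPS replicate 1 (adjusted p = 0.31). The summed level of the 8 monocyte markers was 549 to 595 in WT and 784 to 921 in KO control libraries, and with LPS 966 to 982 in WT and 1534 to 1581 in KO. With IFNg it was 1526 to 1619 in WT and 1346 to 1460.4 in KO, and with IL4 2280.0 to 2306 in WT and 2144 to 2515 in KO. Fn1, which macrophages also make, had the largest share of the control and LPS sums, with means of 368 in WT and 607 in KO control cells. The median difference over the 8, KO minus WT, was 0.43 in control cells, -0.05 under IFNg and 0.43 under IL4. Under LPS it was -0.30, and 0.32 without KO LPS replicate 1. Ly6c2, the defining marker of inflammatory monocytes, ranged from 11.3 to 14.7 in WT control and 6.14 to 17.2 in KO control libraries and from 69.5 to 102 and 45.5 to 65.2 with IFNg. Its mean was lower in KO in all 4 treatments, but the difference did not pass the threshold in any treatment (adjusted p of 0.17 to 0.97 with limma). All 8 monocyte markers had a read in every group. The part of these markers in the Ccr2 and Cx3cr1 differences was not tested.

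**Figure D2:**
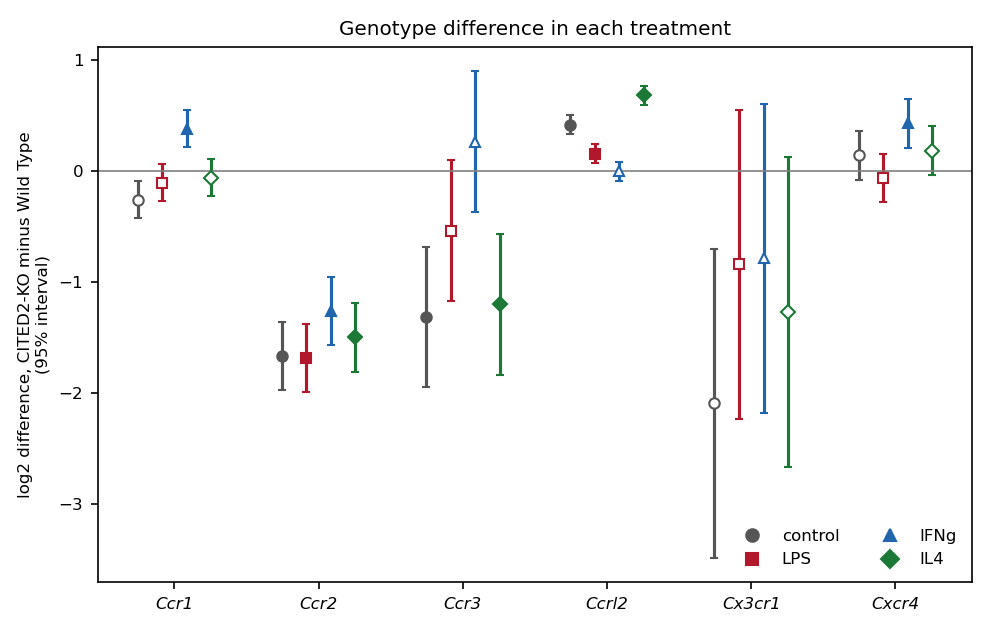
Log2 difference of log2(value + 1), KO minus WT (y axis), for each receptor (x axis) in each of the 4 treatments (colour and shape). Points are limma estimates, bars are 95% intervals, and filled points passed an adjusted p of 0.05. The 4 points of Ccr2 lie between -1.68 and -1.26, and the intervals of Cx3cr1 are the widest.

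Ccr1, a receptor of the inflammatory chemokines CCL3 and CCL5, rose with LPS and IFNg. Its control values were 333, 368 and 320.0 in WT and 286, 265 and 303 in KO. With LPS they were 1027, 977 and 1121 in WT and 1016, 1016 and 879.9 in KO, and with IFNg 1027, 1119.7 and 1018 in WT and 1276, 1379.5 and 1474 in KO. The 12 libraries with LPS or IFNg were all above the 6 controls. LPS raised Ccr1 3.06-fold in WT and 3.41-fold in KO (log2 1.61 ± 0.08 and 1.76 ± 0.08, adjusted p = 8.8e-15 and 1.3e-15), and IFNg 3.10-fold and 4.83-fold (1.63 ± 0.08 and 2.27 ± 0.08, adjusted p = 9.6e-15 and 1.3e-17). The larger response to IFNg in KO passed the interaction test, with a difference of 0.64 ± 0.11 (adjusted p = 0.0012).

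Ccr1 was higher in KO than in WT with IFNg (1.30-fold, 0.38 ± 0.08, adjusted p = 0.0022), with no overlap of the libraries. In control cells the difference was -0.26 ± 0.08 (adjusted p = 0.059), which passed without KO control replicate 3 (adjusted p = 0.046) and with DESeq2 (adjusted p = 0.037). With LPS it was -0.10 ± 0.08 and with IL4 -0.06 ± 0.08, with 95% intervals of -0.27 to 0.06 and -0.22 to 0.11. IL4 libraries had 397, 363 and 392 in WT and 382, 358 and 367 in KO. The IL4 response passed in KO (0.38 ± 0.08, adjusted p = 9.3e-04) and not in WT (0.18 ± 0.08, adjusted p = 0.15), and the 2 responses did not differ past the threshold (interaction 0.20 ± 0.11, adjusted p = 0.56).

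Ccr3, the eotaxin receptor, was a low gene that LPS raised and IFNg lowered. Control libraries had 52.3, 41.3 and 44.0 in WT and 20.2, 12.5 and 21.9 in KO. LPS libraries had 122, 127 and 133 in WT and 70.9, 97.8 and 97.6 in KO, where the first KO value is 3 reads. IFNg libraries had 4.48, 9.12 and 9.24 in WT and 8.47, 7.03 and 12.05 in KO. LPS raised it 2.78-fold in WT and 4.87-fold in KO (log2 1.46 ± 0.31 and 2.24 ± 0.31, adjusted p = 2.4e-04 and 7.3e-07), and in KO by 2.40 without replicate 1 (adjusted p = 1.0e-07). IFNg lowered it 6.02-fold in WT (-2.49 ± 0.31, adjusted p = 2.0e-07) and 1.99-fold in KO (-0.91 ± 0.31, adjusted p = 0.017). The KO call with IFNg was lost without KO control replicate 1 (adjusted p = 0.064), KO control replicate 3 (0.080) or KO IFNg replicate 2 (0.078), and under median centring (0.14).

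Between genotypes Ccr3 was 2.51-fold lower in KO in control cells (-1.31 ± 0.31, adjusted p = 0.0062) and 2.34-fold lower with IL4, where WT had 49.6, 54.9 and 51.8 and KO 19.5, 20.8 and 26.6 (-1.20 ± 0.31, adjusted p = 0.011). The control call was lost without KO control replicate 2 (adjusted p = 0.060) and the IL4 call without KO IL4 replicate 1 (adjusted p = 0.061). With LPS the difference was -0.53 ± 0.31 and with IFNg 0.27 ± 0.31 (adjusted p = 0.23 and 0.76), and without KO LPS replicate 1 the first was -0.38 (adjusted p = 0.43). The interaction with IFNg was 1.58 ± 0.43 and stood just outside the threshold with limma (adjusted p = 0.051) and edgeR (adjusted p = 0.065). It was inside with DESeq2 (adjusted p = 0.040) and without KO IFNg replicate 2 (limma adjusted p = 0.044). The interaction with LPS, 0.78 ± 0.43, did not pass with limma (adjusted p = 0.31), nor without KO LPS replicate 1 (0.93, limma adjusted p = 0.16). It passed with edgeR (adjusted p = 0.033) and DESeq2 (adjusted p = 0.047).

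Of 6 eosinophil markers, Epx, the defining peroxidase, had at most 1.93 in any library and was at 0 in 5 of the 8 groups. Siglecf, a lectin that macrophages of some tissues also carry, made up most of the summed level and was higher in KO in all 4 treatments, by 1.41 ± 0.09 in control cells and 0.89 ± 0.09 with IL4. The sum over the list, 189 to 233 in WT and 474 to 509 in KO control libraries, was therefore mostly that of Siglecf. Prg2, an eosinophil granule protein, had a lower mean in KO in all 4 treatments, 28.4 in WT and 12.5 in KO control cells and 7.78 and 3.78 with IL4, and did not pass in any (-1.07 ± 0.59 in control cells, adjusted p = 0.44 with limma). The median over the 4 eosinophil markers tested was -0.56 in control cells and -0.57 with IL4, KO minus WT. The part of these markers in the Ccr3 differences was not tested.

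All genes tested give the background for these calls. With LPS, 5 of 6 passed in WT, where 53.3% of all genes tested did, and 5 of 6 in KO, where 57% did. Cx3cr1 was the exception in both. With IFNg, 6 of 6 passed in WT and in KO, where 45.1% and 46% of genes did. With IL4, 3 of 6 passed in WT (Ccr2, Ccrl2 and Cxcr4 fell) and 4 of 6 in KO (the same fell and Ccr1 rose), where 20.1% and 23.2% of genes did. Between genotypes, the 3 KO and 3 WT values did not overlap for 23.4% of all genes in control cells, 24.3% under LPS, 27.9% under IFNg and 32.3% under IL4, so a lack of overlap alone is common. By the test, 3 of 6 passed in control cells (7.16% of genes), 2 of 6 with LPS (22.2%), 3 of 6 with IFNg (9.05%) and 3 of 6 with IL4 (9.29%). Of the 6, Ccr2 alone passed as lower in KO in all 4 treatments, and Ccrl2 passed as higher in 3. For interactions, 1 of 6 passed with LPS (8.79% of genes), 2 of 6 with IFNg (2.5%) and 1 of 6 with IL4 (3.61%). With 6 genes these counts describe those genes and no class. The same shares of all genes are the background for the counts of list and marker genes.

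**Figure D3:**
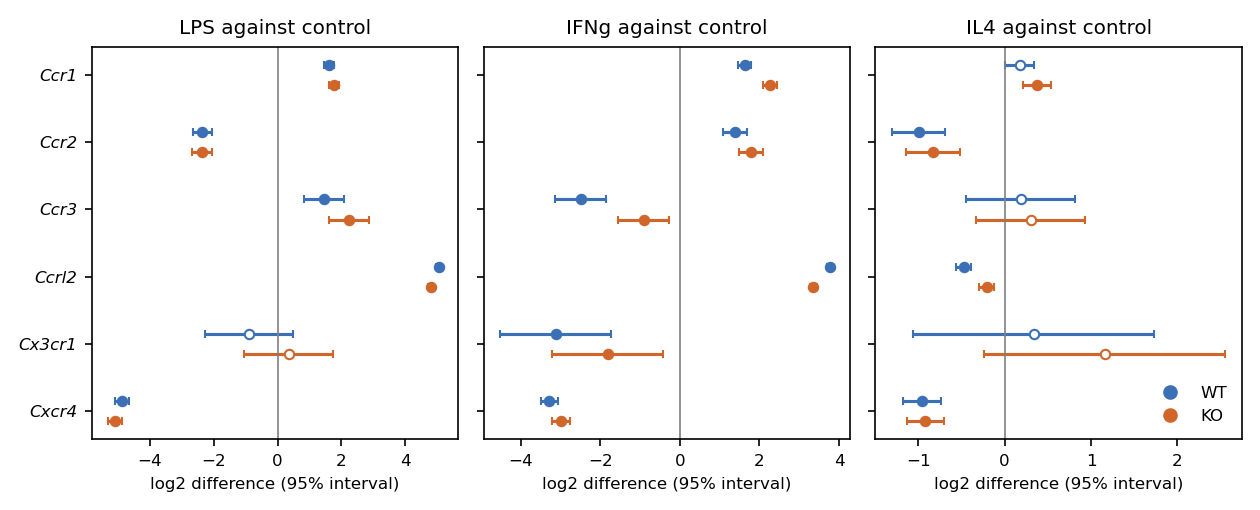
Log2 difference of log2(value + 1), treatment minus control (x axis), for each receptor (y axis) with LPS, IFNg and IL4, in WT and KO (colours). Points are limma estimates, bars are 95% intervals, and filled points passed an adjusted p of 0.05. Ccrl2 and Ccr1 lie to the right with LPS and IFNg, Cxcr4 lies to the left with all 3, and Ccr2 is left with LPS and IL4 and right with IFNg.

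The size of these responses can be set beside the typical gene. The median log2 difference over all genes tested lay within 0.1 of 0 in every comparison but LPS in KO, where it was -0.21. Centring each library on its median instead raised all LPS differences by 0.42 in both genotypes and all IFNg differences by 0.32 in WT and 0.33 in KO. Every direction given as a rise or fall of a receptor held under that scaling, under TMM scaling in edgeR and in DESeq2.

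The order of the 8 groups differed from receptor to receptor. For Ccr2 it ran, from high to low, WT IFNg, KO IFNg, WT control, WT IL4, KO control, WT LPS, KO IL4 and KO LPS, and of these neighbours only WT LPS and KO IL4 overlapped in their ranges. For Ccrl2 it ran KO LPS, WT LPS, WT IFNg, KO IFNg, KO control, KO IL4, WT control and WT IL4, with only the 2 IFNg groups overlapping. For Cxcr4 it ran KO control, WT control, KO IL4, WT IL4, KO IFNg, WT IFNg, WT LPS and KO LPS, with only the 2 LPS groups overlapping. For Ccr1 it ran KO IFNg, WT IFNg, WT LPS, KO LPS, WT IL4, KO IL4, WT control and KO control. Its neighbours WT IFNg and WT LPS, WT LPS and KO LPS, WT IL4 and KO IL4, and KO IL4 and WT control overlapped. For Ccr3 it ran WT LPS, KO LPS, WT IL4, WT control, KO IL4, KO control, KO IFNg and WT IFNg, and WT IL4 overlapped WT control, KO IL4 overlapped KO control and KO IFNg overlapped WT IFNg. All neighbours overlapped for Cx3cr1. Leaving out KO LPS replicate 1 changed the order of Cx3cr1 alone.

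Per kilobase of annotated exon, which allows a rough comparison of levels between genes, Cxcr4 led in WT control cells with a mean of 5227 per kilobase. Ccrl2 followed with 543, Ccr1 with 120.0, Ccr2 with 86.3, Ccr3 with 14.0 and Cx3cr1 with 6.26. With LPS the lead in WT passed to Ccrl2 with 18082 per kilobase, and Cxcr4, at 178, stood below Ccr1, at 368. In KO control cells Ccr2 stood at 27.1 per kilobase. The order of the 6 genes in KO was that of WT both in control cells and with LPS. The lengths join all GENCODE M21 exons of a gene, 1808 bases for Cxcr4 and 6760 for Ccr2. They may differ from the exons counted or expressed, so the ranking between genes is approximate.

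For each receptor, the 3 genes with the most similar pattern were sought among 9575 others with a group mean of at least 100, by Pearson r over the 8 group means of log2(value + 1). For Ccrl2 these were Tnfaip2, Rnf145 and Daam1 (r of 0.998 to 0.999), and for Cxcr4 Fam219b, Akap8l and Kifc2 (0.996 to 0.999). For Ccr1 they were Eif2s2, a subunit of the translation initiation factor eIF2, and the amino acid transporters Slc7a1 and Slc7a5 (0.991 to 0.994). Ccr2 was most like Smagp, Hspa2 and Ptrhd1 (0.976 to 0.990), Ccr3 most like Pogz, Bmpr2 and Gpsm2 (0.951 to 0.965) and Cx3cr1 most like Dcxr, Cltc and Pstpip1 (0.952 to 0.959). These are descriptions over 8 points that come from shared libraries. Over the 24 libraries r was as low as 0.760 for Cltc with Cx3cr1, 0.777 for Pogz with Ccr3 and 0.789 for Ptrhd1 with Ccr2. Group means of Pogz ran only from 673 to 920 and those of Cltc from 22886 to 30944, so a similar pattern is not a similar size of change.

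The ligands of these receptors, 13 genes in a list, mostly rose with LPS. LPS raised 10 of 13 and lowered 1 in WT (median log2 difference 6.50, against -0.06 for all genes) and raised 9 and lowered 1 in KO (median 5.64, against -0.21). Without KO LPS replicate 1 it raised 10 in KO, Rarres2 being the added one. Ccl2, the main CCR2 ligand, rose from 28.6 ± 6.20 to 30112 ± 849.8 in WT and from 15.1 ± 3.46 to 40684 ± 812 in KO. Its receptor thus fell with LPS while it rose. Ccl3, a CCR1 ligand, rose from 738 ± 35.1 to 85928 ± 2904 in WT and from 571 ± 25.7 to 123674 ± 3902 in KO, and Ccr1 rose with it.

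IFNg raised 8 of 13 ligands in each genotype, and lowered 4 in WT and 3 in KO (medians 1.52 and 1.89, against 0 and -0.08 for all genes). Both medians are the value of Ccl11, which had no read in the control libraries, and with Ccl11 set at the bound that 3 reads over the group allow they are 0.77 and 1.17. Ccl5, a ligand of CCR1 and CCR3, went from 34.3 ± 11.2 to 10329 ± 969 in WT. IL4 raised 7 and lowered 2 in each genotype (medians 0.66 and 1.30, against 0 for all genes in both). Ccl9, a CCR1 ligand, rose by 2.23 ± 0.07 in WT and 2.42 ± 0.07 in KO with IL4. Ligands of the other receptors were low: Cxcl12 ranged from a mean of 18.5 to 45.1 over the 8 groups, Cx3cl1 from 4.31 to 102, and Rarres2, which encodes chemerin, from 0.497 to 4.62.

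Between genotypes the ligands moved in both directions. In control cells 1 of 13 was higher and 5 were lower in KO (median -0.37), with LPS 3 were higher and 1 lower (0.04), with IFNg 3 were higher and 0 lower (0.10), and with IL4 3 were higher and 2 lower (0.20), where the median over all genes was within 0.1 of 0. Of the CCR2 ligands, Ccl2 was lower in KO in control cells (-0.88 ± 0.15) and with IL4 (-0.96 ± 0.15) and higher with LPS (0.43 ± 0.15, adjusted p = 0.040), and Ccl7 was lower in control cells (-0.78 ± 0.23) and with IL4 (-1.29 ± 0.23). Ccl12 did not pass in any treatment. With LPS the ligand Ccl2 was thus higher and the receptor Ccr2 lower in KO, but the call for Ccl2 was lost without KO LPS replicate 1 (0.42 ± 0.16, adjusted p = 0.070). Of the CCR1 ligands, Ccl6 was higher in KO in all 4 treatments (0.47 ± 0.08 in control cells, 0.64 ± 0.08 with IFNg). Ccl3 was lower in control cells (-0.37 ± 0.07) and higher in the other 3 treatments (0.46 to 0.53), and Ccl5 was higher with IL4 (1.33 ± 0.16). The interaction passed for Ccl3 with each treatment (0.90 ± 0.10, 0.90 ± 0.10 and 0.83 ± 0.10 for LPS, IFNg and IL4).

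**Figure D4:**
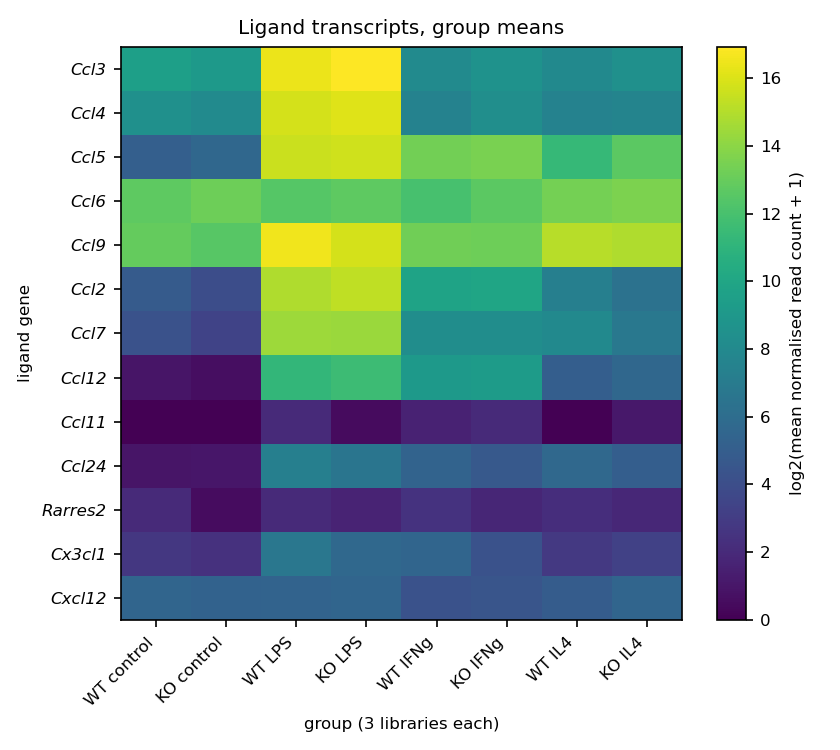
Level of the 13 ligand genes (y axis) in the 8 groups (x axis), as log2 of the mean normalised read count plus 1 (colour, scale from 0). Ccl3, Ccl4, Ccl5, Ccl9, Ccl2 and Ccl7 are brightest with LPS, and Ccl11 and Rarres2 are dark in all 8 groups.

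Of 16 other chemokine receptors, 11 were tested and most were near the limit of detection. None passed between genotypes with limma in any treatment. At an unadjusted p below 0.05, 2 of 11 differed under LPS, 2 under IFNg, 1 under IL4 and 0 in control cells, and edgeR and DESeq2 called 0 or 1 in each, with no adjusted p from DESeq2 for some of the low ones. Cxcr3, the receptor of the interferon-induced chemokines, was the highest in control cells at 136 ± 27.2 in WT and 199 ± 24.9 in KO, and fell with all 3 treatments in both genotypes (-5.26 ± 0.73 with IFNg in WT). Xcr1, a receptor best known from dendritic cells, rose with IFNg, from 0.180 ± 0.311 to 126 ± 13.4 in WT and from 0.204 ± 0.354 to 40.3 ± 9.002 in KO. Beside it the sum of the dendritic cell markers was 12.4 to 23.2 in WT control and 619 to 745 in WT IFNg libraries, where Clec9a carried most of it, with Flt3 at 0 in both groups. The part of these markers in the result was not tested. In WT, LPS raised 2 of the 11 (Ccr7 and Ccr9) and lowered 2 (Cxcr2 and Cxcr3). Ackr3, the second receptor of CXCL12, had a mean of at most 1.45 in any group.

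Receptors of attractants other than chemokines formed a list of 12 genes. In KO, 2 were higher and 4 lower in control cells, 3 and 5 with LPS, 3 and 2 with IFNg, and 3 and 5 with IL4 (medians of -0.50, -0.31, -0.16 and -0.21, where the medians over all genes were within 0.1 of 0). Without KO LPS replicate 1 the LPS counts were 3 and 4, the call for P2ry12 being lost. Cmklr1, the signalling receptor of chemerin, to which CCRL2 presents that ligand, was higher in KO in control cells (0.51 ± 0.07), with IFNg (0.53 ± 0.07) and with IL4 (0.45 ± 0.07), and lower with LPS (-0.56 ± 0.07). Its levels were 846 ± 99.9 in WT and 573 ± 22.0 in KO with LPS, and the interaction with LPS passed (-1.07 ± 0.11). Gpr183, a receptor for oxysterols, was lower in KO in control cells (-2.42 ± 0.54), with LPS (-2.30 ± 0.54, or -1.93 ± 0.53 without KO LPS replicate 1) and with IL4 (-2.47 ± 0.54). The complement receptor C5ar1 was lower in KO in control cells (-0.49 ± 0.05) and with IL4 (-0.75 ± 0.05) and higher with LPS (0.85 ± 0.05). Ptafr, the receptor of platelet-activating factor, was higher in KO in all 4 treatments (0.17 to 0.44), and P2ry6, a receptor for UDP, was lower in all 4 (-0.69 to -0.45).

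Genes that couple chemokine receptors to movement or switch them off formed a list of 24. Between genotypes 4 were higher and 3 lower in KO in control cells, 7 and 10 with LPS, 4 and 6 with IFNg, and 1 and 2 with IL4 (medians of -0.01, -0.11, -0.17 and -0.08, again beside medians within 0.1 of 0 over all genes). Of all genes tested, 7.16%, 22.2%, 9.05% and 9.29% passed in these 4 comparisons. Without KO LPS replicate 1 the LPS counts were 8 and 8: Grk5 was added to the higher ones, and Grk2 and Rgs19 were lost from the lower ones. Rgs1, which shortens chemokine receptor signals, was higher in KO in all 4 treatments (1.30 ± 0.08 with LPS), and Rgs18, of the same family, was lower in all 4 (-1.15 ± 0.15 with IFNg). Pik3cg, the kinase of G protein-driven migration, was lower in control cells (-0.45 ± 0.07), with LPS (-0.74 ± 0.07) and with IFNg (-0.29 ± 0.07). Dock2, an activator of Rac in migrating leukocytes, was higher in the same 3 treatments (0.28 ± 0.05, 0.33 ± 0.05 and 0.19 ± 0.05). With LPS in WT, 12 of 24 rose and 9 fell (median 0.34), where 53.3% of all genes tested passed. Arrb1, a beta-arrestin that uncouples receptors, fell by 3.30 on the log2 scale.

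Markers of other blood and stromal cells were checked as well. Between genotypes, 0 to 2 of 10 neutrophil markers were higher and 0 to 5 lower in KO, depending on treatment, with sums of 3371 to 3699.8 in WT and 3862 to 4239.6 in KO control libraries. Csf3r made up most of these sums (1841 in WT and 2558 in KO). Of 10 macrophage markers, 0 to 2 were higher and 1 to 5 lower in KO. Of the 8 T and NK cell markers, up to 2 were higher in KO, and their sum was 12.2 to 31.6 in WT control against 579.6 to 607 in WT LPS libraries. That rise was in Lck, from a mean of 8.87 to 543, and Cd247, from 2.80 to 40.3. The other 6, among them Cd3e, Trac and Ncr1, did not pass with LPS in WT, and the median of the 8 was -0.36. At most 1 marker passed between KO and WT in any treatment in each of the lists for B cells, dendritic cells, eosinophils, fibroblasts, and mast cells and basophils. In control libraries of both genotypes, the sums of the B cell, dendritic cell and T and NK cell lists were at most 34.5 in any library. Other lists stood higher. The mast cell and basophil sum was 347 to 383 in WT and 344 to 368 in KO control libraries, and 73.2 to 88.6 in WT IL4 libraries. The fibroblast sum was 288 to 364 in WT and 233 to 302 in KO control libraries.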

How the data were processed

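RNA sequencing values for 24 libraries (3 in each of 8 groups, taken from the labels) came as 1 table of gene values. The authors deposited a normalised signal: each value was a gene's read count divided by a library factor. The values themselves show this, since 100% of them were whole multiples of 1 read at a tolerance of 0.05 reads in every library, and median-of-ratios factors computed from those reads matched the deposited factors within 1.08e-07 percent. Alignment to mm10 (GRCm38) with TopHat2 2.2.1, and Cufflinks 2.2.1 and Cuffdiff, are named per the submitters' processing notes. The counter, its annotation and its use of strand are not given in the sources used here. Positions and exon lengths came from GENCODE M21, and promoter sequences from RefSeq (GRCm38.p6), which held all 6 receptors.

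Values were analysed as log2(value + 1) for the 18637 genes that reached 1 in 3 or more libraries, with limma 3.58.1 in R 4.3.3: 1 mean per group over all 24 libraries, moderation with a trend in the variance, 16 degrees of freedom left, two-sided, for 13 comparisons. Calls were made below 0.05 after Benjamini-Hochberg adjustment over all genes tested. A log2 difference on this scale understates the change of low genes. "Did not overlap" compares the 3 values of each group. The fit was tested on simulated data. Depth ran from 1478507 to 73409343 reads, and a floor of 3 reads was worth 70.9 in KO LPS replicate 1 and at most 12.2 in the others. Floors cover counting error only.

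The alternatives were a pseudocount of 8, a filter at 10 or none, median centring, the compared libraries alone, a replicate block, edgeR 4.0.16 (quasi-likelihood, TMM) and DESeq2 1.42.0 on the whole reads, and each library left out. The counts of receptors and list genes called without KO LPS replicate 1 were added after seeing the data.

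Genes named are the 6 receptors, Cited2, up to 4 genes of smallest p per list and comparison with the ligands and paired receptors of the 6, and the 3 genes most like each receptor. Ackr3, Siglecf, Epx, Prg2, Clec9a, Flt3, Ccr7, Xcr1 and the genes whose calls changed without KO LPS replicate 1 are also described. Some genes that the rule allows are left unnamed. The lists were ligands, other chemokine receptors, other chemoattractant receptors, coupling genes and markers of macrophages, monocytes, neutrophils, eosinophils, mast cells and basophils, B cells, dendritic cells, T and NK cells and fibroblasts. The receptors and lists were chosen with earlier results of these data known.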

Additional observations from a re-analysis of the deposited data

Results flagged for a closer look

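The response to a treatment differed between genotypes, by the interaction test of the limma fit, in 4 cases. For Ccr1 the log2 rise with IFNg was 0.64 ± 0.11 larger in KO than in WT (adjusted p = 0.0012). It stayed called under every alternative tried. For Ccrl2 the response in KO minus that in WT was -0.26 ± 0.06 for LPS (adjusted p = 0.0049), -0.42 ± 0.06 for IFNg (adjusted p = 6.6e-05) and 0.27 ± 0.06 for IL4 (adjusted p = 0.0076), where KO control libraries were higher than WT control libraries to begin with. The IFNg case stayed called under every alternative tried. The LPS and IL4 cases lost the call under median centring, and the IL4 case also with edgeR. The groups hold 3 libraries each, so no library was tested as standing apart within its group.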

How the results depend on the processing

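Of 78 results for the 6 receptors (6 genes in 13 comparisons) 44 were called, and 37 of these kept their direction and call under every alternative run. None of the 44 changed sign, and 7 lost the call under at least 1 alternative. Of the 34 not called, 12 gained a call and 7 changed sign under at least 1 alternative. The cause of each change was not tested.

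Counts over all genes moved by more than 1.5 times as follows. Between genotypes with LPS, 4141 genes were called, and 1021 with the compared libraries alone. The same kind of fit gave 2050 with IFNg and 2241 with IL4, above the main fit. The cause of the fall with LPS was not tested. With IFNg the main fit called 1686 genes between genotypes, against 2533 with edgeR and 2576 with DESeq2. With IL4 it called 1731, against 2862 and 2735. The LPS interaction had 1639, against 862 with the compared libraries alone, and DESeq2 called 849 against 466 for the IFNg interaction and 1169 against 672 for the IL4 interaction. Without KO LPS replicate 1, the receptors called in the LPS interaction were 2 (Ccrl2 and Cxcr4), against 1. Median centring raised the share of calls that were higher from 57.4% to 71.4% between genotypes in control cells, from 43.7% to 58.2% with LPS and from 53.4% to 72.0% with IFNg. It raised that share from 47.9% to 69.0% for LPS and from 49.9% to 70.8% for IFNg in WT, and from 43.0% to 61.6% and from 48.4% to 70.1% in KO. DESeq2 gave 54.3% higher between genotypes with LPS, and edgeR 55.7% for the IL4 interaction against 68.0%.

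The changes of sign were all in differences that were not called. The Ccr2 interaction with LPS went from -0.02 to 0.13 with a pseudocount of 8, 0.20 with edgeR, 0.21 with DESeq2 and ranged from -0.18 to 0.25 with single libraries left out. Ccrl2 between genotypes with IFNg went from -0.0015 to 0.076 under median centring and 0.0078 with edgeR, and ranged from -0.017 to 0.021 with libraries left out. Cxcr4 between genotypes with LPS went to 0.0049 under median centring and ranged from -0.26 to 0.055 with libraries left out. Cx3cr1 with LPS in KO went from 0.35 to -0.68 with edgeR, -0.50 with DESeq2, ranged from -0.41 to 0.78 with libraries left out, and its LPS interaction went to -0.25 with edgeR. With libraries left out, Ccr3 ranged from -0.029 to 0.42 between genotypes with IFNg and from -0.12 to 0.26 in the IL4 interaction. Adding the replicate number as a block changed no call of a receptor and gave counts of 424 to 10575 genes, none moved by more than 1.5 times. Pairing of libraries by number was not detected: deviations of same-numbered libraries had r of -0.55 to 0.47, and 6 of 24 libraries were closest to their own number. Deviations from means of 3 libraries make this a weak check that cannot exclude pairing. Depth limits Cx3cr1, with 0 to 57 reads per library, and every low gene in KO LPS replicate 1.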
